A study of Mus musculus with 20 samples.

Results

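The most abundant T cell receptor β (TCRβ) clones of peripheral CD8 T cells were taken from 17 mice. In each mouse, the 50 in-frame TCRβ clones with the most unique molecules were chosen, with ties settled by read count and then by nucleotide sequence. These 850 leading clones were chosen by their molecule counts out of 258892 in-frame TCRβ clones in the 17 mice and 259315 in all libraries analysed here. A clone is one combination of V gene, J gene and CDR3 nucleotide sequence, and a unique molecule is a transcript counted once by its molecular identifier.

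All mice were C57BL/6 males of 9 to 12 weeks, and RNA came from sorted CD4- CD8+ T cells with high TCRβ. WT mice carry both specialised catalytic subunits of the proteasome, β5i-KO mice lack β5i and β5t-KO mice lack β5t. BIT mice are homozygous for a replacement of the β5i coding sequence at Psmb8 with the β5t coding sequence of Psmb11, so that β5t is made where β5i would be, and the study used a single BIT line unless it stated otherwise. Each library came from an individual mouse, with 4 WT (1 to 4), 5 β5i-KO (1 to 5), 4 β5t-KO (1 to 4) and 4 BIT (1, 2, 4 and 5) mice. WT 5, β5t-KO 5 and BIT 3 were not part of the selection. The labels name lymph nodes as the tissue, while the protocol names lymph nodes and spleens. TCR libraries do not measure Psmb8 or Psmb11, so the genotypes could not be checked in them.

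The β chain is assembled in the thymus by joining a V, a D and a J gene segment. The joint forms CDR3, the loop that contacts the peptide on the MHC molecule, and enzymes trim the segment ends and add untemplated bases between them. A CDR3 that needs few added bases, or that several nucleotide sequences can encode, arises more often by chance and is known to recur between individuals. The specialised proteasomes make the peptides on MHC class I molecules: β5i in most antigen-presenting cells and β5t in the cortical epithelium of the thymus, where CD8 T cells are positively selected. β5t-KO mice are known to have few CD8 T cells.

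The libraries held 393 to 41381 in-frame TCRβ clones, 7669 to 143170 unique molecules and 603211 to 2800778 reads. β5t-KO 2 and WT 1 had the fewest clones, 393 and 931, and in β5i-KO 4 a clone had 1.45 molecules on average. These 3 libraries stand apart from the others, and values without them are given below where they change a result. No pair of mice held the same list of leading clones, and 2 nucleotide sequences were the most that any pair had in common among them.

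The sequences below show what leading clones look like. Bases that the authors' alignment assigned to neither V nor J, with D and added bases together, are in capitals. The 5 first-ranked clones with the largest shares of their library, 1.71%, 0.94%, 0.72%, 0.53% and 0.40%, are shown first in that order, as the largest clones of their mice.
β5t-KO 2, TRBV13-3 with TRBJ2-5: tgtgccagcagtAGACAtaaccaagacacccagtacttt
β5t-KO 3, TRBV3 with TRBJ2-4: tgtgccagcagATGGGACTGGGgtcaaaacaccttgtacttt
WT 1, TRBV31 with TRBJ2-7: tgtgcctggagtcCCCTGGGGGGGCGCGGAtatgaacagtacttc
β5t-KO 4, TRBV13-3 with TRBJ2-2: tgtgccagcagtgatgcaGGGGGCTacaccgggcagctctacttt
β5t-KO 1, TRBV1 with TRBJ2-3: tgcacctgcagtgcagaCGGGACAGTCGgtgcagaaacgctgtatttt

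No CDR3β was among the leading clones of 4 or more mice, and 8 amino acid sequences led in 3 mice. The following nucleotide sequences belong to 5 of those 8 and are shown because they recur at the top of separate mice.
TRBV13-3 with TRBJ2-2, 15 residues, WT 2: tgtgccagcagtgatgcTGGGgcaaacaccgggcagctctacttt
The same residues, WT 3 and WT 4: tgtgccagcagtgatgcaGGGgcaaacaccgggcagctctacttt
TRBV13-1 with TRBJ2-7, 11 residues, BIT 2 and BIT 4: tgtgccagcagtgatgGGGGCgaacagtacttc
The same residues, BIT 4: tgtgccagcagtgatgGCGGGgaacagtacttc
The same residues, BIT 1: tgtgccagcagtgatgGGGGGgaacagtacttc
TRBV13-3 with TRBJ2-7, 11 residues, β5i-KO 1, β5i-KO 3 and β5t-KO 3: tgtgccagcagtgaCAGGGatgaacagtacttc
TRBV13-3 or TRBV13-1 with TRBJ2-7, 12 residues, β5i-KO 1, BIT 1 and BIT 4: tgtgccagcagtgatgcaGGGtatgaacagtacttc
TRBV29 with TRBJ2-1, 13 residues, WT 4: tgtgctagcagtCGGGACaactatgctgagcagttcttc
TRBV17 with TRBJ2-1, the same residues, β5t-KO 4: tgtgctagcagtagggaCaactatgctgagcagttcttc
TRBV17 with TRBJ2-1, the same residues, β5t-KO 3: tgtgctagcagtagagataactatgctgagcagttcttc

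The first question was how much of the repertoire the leading clones hold and whether that differs between genotypes. In WT 1 to 4 the 50 leading clones held 20.7%, 4.59%, 2.21% and 1.51% of in-frame molecules. In β5i-KO 1 to 5 they held 0.92%, 3.80%, 1.34%, 1.85% and 3.77%. In β5t-KO 1 to 4 they held 4.35%, 35.0%, 5.42% and 10.2%. In BIT 1, 2, 4 and 5 they held 1.16%, 1.84%, 1.72% and 1.13%. All 4 β5t-KO mice lay above all β5i-KO and all BIT mice, while the 4 WT mice overlapped all other groups.

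**Figure D1:**
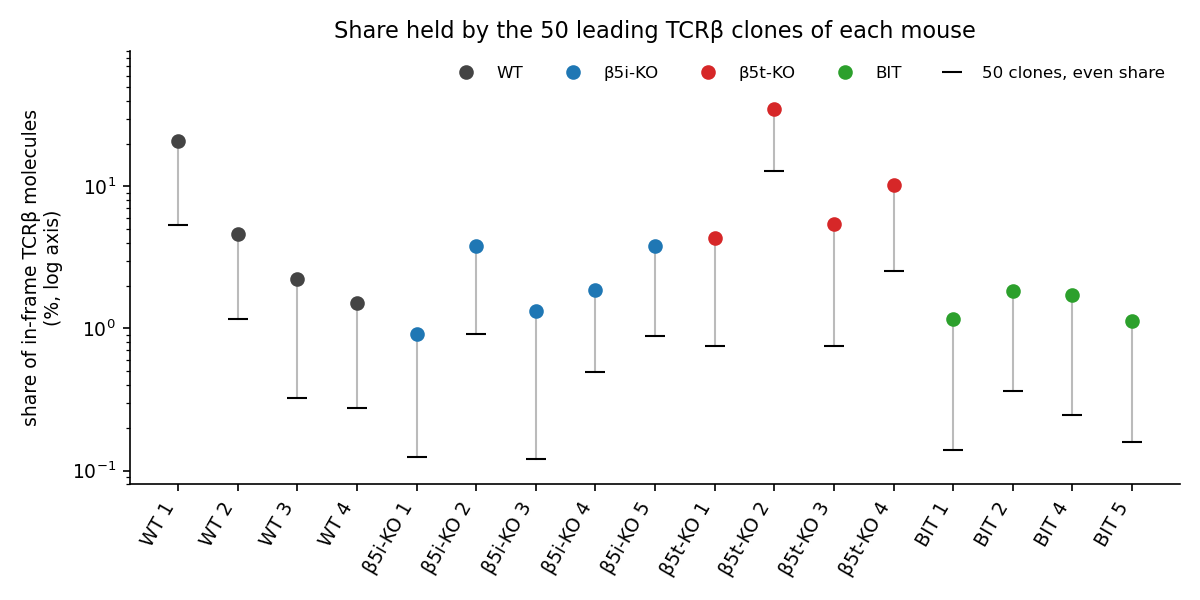
Share of in-frame TCRβ molecules held by the 50 leading clones of each mouse (points, percent on a log axis) and the share that 50 clones would hold if all clones of that mouse were equal (black bars). The 4 β5t-KO mice lie between 4.35% and 35.0%, and the 4 BIT mice between 1.13% and 1.84%.

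The mean share was 13.7% ± 14.4 (SD over 4 mice) for β5t-KO and 2.34% ± 1.36 (SD over 5 mice) for β5i-KO, which differed by 11.4 percentage points (exact permutation test, two-sided, p = 0.00794, adjusted p = 0.0476 over 6 pairs of genotypes). It was 1.46% ± 0.37 for BIT and 7.26% ± 9.07 for WT (SD over 4 mice each). BIT mice were below β5t-KO mice by the smallest p that 4 against 4 mice can give, 0.0286 by the exact test, which was 0.0857 after adjustment. The other 4 pairs had adjusted p of 0.171 to 0.486 by the exact permutation test. Thinning every library to 7669 molecules before ranking gave 14.5% ± 13.9 (SD over 4 mice) for β5t-KO and 3.43% ± 1.47 (SD over 5 mice) for β5i-KO, with the same exact p. Without WT 1, β5t-KO 2 and β5i-KO 4 the difference between β5t-KO and β5i-KO mice was 4.19 percentage points, with an adjusted exact p of 0.0857. The call was also lost, at the same adjusted exact p, with 100 leading clones and without any 1 mouse of these groups (4.31 points without β5t-KO 2). Fewer mice raise the smallest p that the exact test can give (0.0286 for 4 against 4 mice). The losses with mice left out therefore cannot decide the call. With same-numbered mice as pairs the adjusted exact p was 0.5, but 4 pairs cannot reach the threshold, so pairing cannot decide the call. BIT 3 had 411 in-frame clones and 7312 molecules. With it included, BIT minus β5t-KO was -5.40 percentage points in place of -12.3 (adjusted exact permutation p = 0.729). BIT minus WT was then 1.08 points in place of -5.80 (adjusted exact p = 0.984). The low share of BIT mice thus rests on leaving BIT 3 out.

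The share moves with the number of clones in a library, because 50 clones are a larger part of a small library. If every clone of a mouse were equal, 50 clones would hold 0.12% (β5i-KO 3) to 12.7% (β5t-KO 2) of its molecules. Leading clones exceeded that even share by 2.75-fold in β5t-KO 2 to 11.1-fold in β5i-KO 3, a range above 1 by the way the clones were chosen. On this scale BIT mice were at 6.89 ± 1.34-fold (SD over 4 mice), β5i-KO at 6.13 ± 3.13-fold (5 mice), WT at 5.02 ± 1.42-fold (4 mice) and β5t-KO at 4.94 ± 1.97-fold (4 mice). No pair of genotypes passed the test (adjusted exact permutation p of 0.6 to 1.0), and β5t-KO mice were then below β5i-KO mice. In bulk RNA, more cells of a clone and more receptor transcripts per cell cannot be told apart.

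TCRα clones gave a similar order. The 50 leading TCRα clones held 11.3% to 28.1% of molecules in β5t-KO mice, 4.23% to 10.9% in WT, 3.77% to 6.27% in β5i-KO and 3.46% to 4.05% in BIT mice. The β5t-KO mice lay above all other mice in this chain, and the difference from each other genotype passed the test (adjusted exact permutation p = 0.0429 for each). BIT mice were also below WT mice for TCRα, 3.75% ± 0.30 against 6.398% ± 3.06 (SD, n = 4 each, adjusted exact p = 0.0429). WT 1 was at 10.9% and the other WT mice at 4.23% to 5.32%. The TCRα shares were not set against an even share, thinned, or tested without the 3 libraries that stand apart. Whether the TCRα differences follow the number of clones, as for TCRβ, was not tested. With same-numbered mice as pairs, of which there were at most 4, these TCRα calls were lost (adjusted exact permutation p of 0.25 to 0.3). So few pairs cannot reach the threshold, so pairing cannot decide these calls. Across the 17 mice the TCRβ and TCRα shares went together, with Pearson's r = 0.88 (permutation p = 0.00212) and Spearman's rho = 0.88 (permutation p = 2e-05, the smallest that 100000 resamples can give). Without WT 1 and β5t-KO 2, the mice farthest from the median TCRβ share, r was 0.91.

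Single clones were small in most mice. The first-ranked clone held 0.72%, 0.14%, 0.25% and 0.09% of molecules in WT 1 to 4 and 0.40%, 1.71%, 0.94% and 0.53% in β5t-KO 1 to 4. It held 0.09% to 0.13% in β5i-KO and 0.08% to 0.13% in BIT mice, so that all β5t-KO mice lay above both of those groups. The β5t-KO mean of 0.89% ± 0.59 (SD over 4 mice) exceeded the β5i-KO mean of 0.11% ± 0.01 (SD over 5 mice) with an adjusted exact permutation p of 0.0476. With same-numbered mice as pairs the adjusted exact p was 0.375, but 4 pairs cannot reach the threshold. Of the 850 leading clones, 4 held 1% or more and 56 held 0.5% or more of their library, and 45 of those 56 were in β5t-KO 2 and 9 in WT 1.

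The edge of the selection was shallow. The last clone taken had 5 molecules in β5i-KO 4 and 55 in β5t-KO 4, with the first clone left out at the same count in 15 of 17 mice. In β5i-KO 4, 65 clones had 5 molecules, and reads decided which of them were taken. The last clone taken had 1.90 (β5t-KO 2) to 5.64 (β5i-KO 3) times the mean molecule count of its library.

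Leading by molecules was not the same as leading by reads. Only 2 (β5i-KO 4) to 31 (β5i-KO 3) of the 50 leading clones of a mouse were also among its 50 clones with the most reads, with a median of 21. The first clone was the same by both counts in 13 of 17 mice. Leading clones had 0.357 to 0.899 times the reads per molecule of the other clones. This is a description only, since a choice by molecule count, the denominator, favours a low ratio. Calls that changed with the ranking by reads are given below for the V and J genes.

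The V genes used by leading clones were then compared with those of all other in-frame clones of the same mouse. TRBV13-3 was the most frequent V gene among the leading clones and was raised in every mouse. It was used by 14%, 24%, 22% and 26% of leading clones in WT 1 to 4, and by 32%, 14%, 14%, 22% and 38% in β5i-KO 1 to 5. It was used by 22%, 20%, 24% and 46% in β5t-KO 1 to 4, and by 18%, 24%, 28% and 22% in BIT 1, 2, 4 and 5. Among the other clones its share ran from 8.31% in WT 3 to 13.3% in β5t-KO 4, so that each mouse's leading clones lay above the other clones of all mice.

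Of 19 V genes tested, 4 (21.1%) were higher and 8 (42.1%) lower among leading clones. The test was an exact sign-flip permutation over the 17 mice, two-sided, with Benjamini-Hochberg adjustment, and a V gene was tested if it made up at least 1% of the other clones. TRBV13-3 averaged 24.1% ± 8.41 of leading and 10.1% ± 1.27 of other clones (SD, n = 17, higher in 17 of 17 mice, exact permutation p = 1.53e-05, adjusted p = 0.000145). Its neighbour TRBV13-1 averaged 10.4% ± 6.97 against 4.51% ± 1.49 (higher in 14 of 17 mice, adjusted exact p = 0.00211). TRBV12-1 averaged 6.82% ± 3.81 against 4.01% ± 1.92 (higher in 15 of 17 mice, adjusted exact p = 0.0015), but with 20 leading clones it was 1.5 points higher and did not pass (adjusted exact p = 0.468). TRBV31 averaged 4.35% ± 2.76 against 2.62% ± 0.33 (higher in 14 of 17 mice, adjusted exact p = 0.023). TRBV13-2, of the same subgroup, was at 11.5% ± 5.03 against 10.6% ± 0.70 and did not pass (adjusted exact permutation p = 0.499). The TRBV13 genes are close copies, and one CDR3 shown above was assigned to TRBV13-3 in some mice and TRBV13-1 in another, so their split rests on bases outside CDR3. As 1 subgroup, TRBV13 genes made up 46% ± 9.95 of leading and 25.2% ± 1.56 of other clones, higher in 17 of 17 mice (adjusted exact permutation p = 0.000122).

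The genes that were lower lie in several parts of the locus. TRBV16 averaged 4.82% ± 5.05 of leading against 12.98% ± 2.56 of other clones (lower in 16 of 17 mice, adjusted exact p = 0.000174). TRBV2 averaged 0.82% ± 1.74 against 4.27% ± 1.05, and no leading clone of any β5i-KO or BIT mouse used it (adjusted exact p = 0.000145 over all mice). TRBV19 averaged 2.00% ± 1.58 against 5.10% ± 1.04 and TRBV14 0.94% ± 1.03 against 2.55% ± 0.37, with the same adjusted exact permutation p. TRBV20, TRBV17, TRBV15 and TRBV23 were lower by 0.91 to 2.80 percentage points, with adjusted exact p of 0.00254 to 0.00403. The V gene shares of a mouse add up to a whole, so a rise of some genes lowers the share of others. Whether the lower genes fell beyond that was not tested.

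On GRCm39 (GENCODE vM39) the TCRβ V genes lie on chromosome 6. Trbv13-1 is at chr6:41092941-41093402, Trbv13-3 at chr6:41107081-41107519, Trbv12-1 at chr6:41090484-41091001 and Trbv16 at chr6:41128674-41129164, all on the plus strand. Trbv2 is at chr6:41024274-41024929. Trbv31 lies at chr6:41534627-41535386 on the minus strand, beyond the J genes, and joins by inversion. The deposited tables hold no coordinates, so these positions are given as annotation of the genes.

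**Figure D2:**
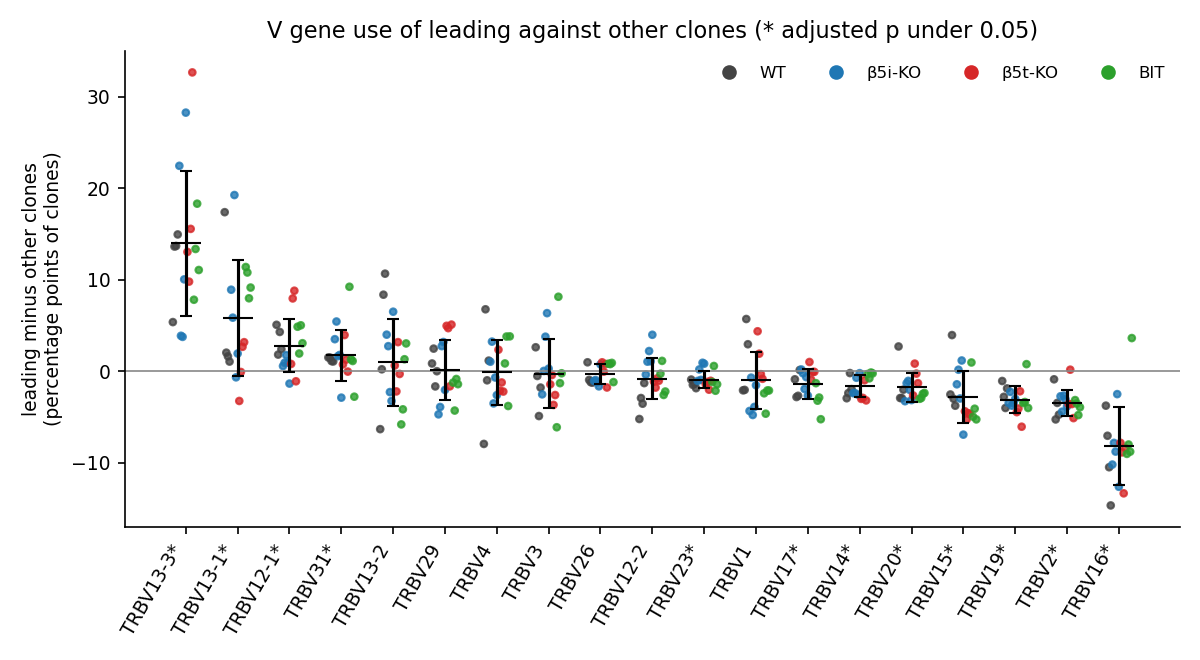
Percentage of leading clones minus percentage of other clones that used each V gene (points, 1 per mouse, in percentage points; bar and whiskers, mean ± SD of 17 mice). Asterisks mark the 12 V genes past the adjusted exact test, and all 17 points of TRBV13-3 lie above 0.

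Molecules per clone also differed between V genes outside the leading clones. Relative to the mean of the other in-frame clones of the mouse, TRBV13-1 clones had 1.23 ± 0.071, TRBV12-1 clones 1.20 ± 0.087, TRBV31 clones 1.19 ± 0.094 and TRBV13-3 clones 1.13 ± 0.079 times as many molecules (SD, n = 17). TRBV16 clones had 0.831 ± 0.054, TRBV19 clones 0.84 ± 0.13 and TRBV14 clones 0.862 ± 0.059 times as many. All 4 genes that were higher among leading clones were thus above 1. TRBV29 at 1.12 ± 0.048, TRBV4 at 1.07 ± 0.079 and TRBV13-2 at 1.04 ± 0.077 were above 1 as well, and their use by leading clones differed by 0.13, -0.12 and 0.96 percentage points and did not pass. TRBV17 was the 1 gene of the 8 lower ones that was above 1, at 1.04 ± 0.10. Among 7708 out-of-frame clones, which encode no receptor chain, TRBV13-1 was at 1.10 ± 0.046, TRBV31 at 1.09 ± 0.027, TRBV12-1 at 1.05 ± 0.045, TRBV13-3 at 0.871 ± 0.043 and TRBV16 at 0.734 ± 0.039 times the mean (SE over clones). This SE is not a spread over mice, unlike the SD above, so the out-of-frame values are a description.

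When clones were ranked by molecules divided by the mean of their V gene in the same mouse, a setting chosen after seeing the data, 1 V gene passed in place of 12. That gene was TRBV2, at -2.37 percentage points (adjusted exact permutation p = 0.0206). This ranking gives every V gene of a mouse the same mean by its construction. Fewer V genes passing, and changes of sign, therefore follow at least in part from the setting and are a description. TRBV13-3 was then 0.35 percentage points higher among leading clones (adjusted exact p = 0.854), and TRBV16 was 1.68 points higher in place of lower (adjusted exact p = 0.513). Ranked by reads, 6 V genes passed, with TRBV13-3 higher by 9.39 points (adjusted exact p = 0.000387). By reads, TRBV12-1 was 0.50 points higher (adjusted exact p = 0.57), and TRBV14 and TRBV20 were at -0.54 and -0.36 points (adjusted exact p of 0.434 and 0.57), so that these 3 lost their calls. Against clones of ranks 51 to 1000 in place of all others, 2 passed, TRBV13-3 at 8.68 points (adjusted exact p = 0.0113) and TRBV2 at -2.35 points (adjusted exact p = 0.00061). TRBV12-1 was then at 0.82 points (adjusted exact p = 0.562), and at -1.07 points when ranked over the mean of the V gene.

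The share of TRBV13-3 was level within the leading clones. It was 22.9% ± 19.3 of ranks 1 to 10, 24.7% ± 15.05 of ranks 11 to 20 and 24.3% ± 8.40 of ranks 21 to 50 (SD, n = 17). It was 21.4% ± 9.24 of ranks 51 to 100, 15.1% ± 4.36 of ranks 101 to 1000 and 9.67% ± 1.18 of lower ranks (SD, n = 15 mice with that many clones). TRBV16 ran the other way, from 2.35% ± 7.52 of ranks 1 to 10 to 13.9% ± 3.02 of ranks over 1000. For both genes, ranks 21 to 50 and ranks 51 to 100 lay within 1 SD of each other.

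**Figure D3:**
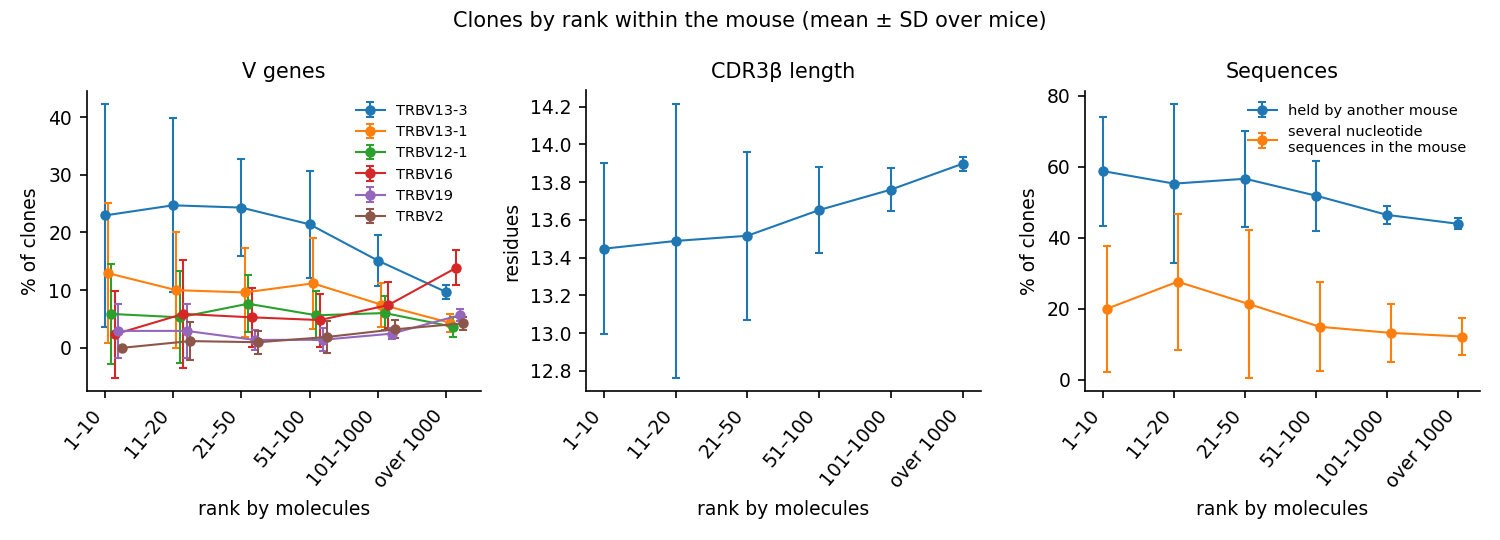
V gene shares, mean CDR3β length and the shares of clones with recurring sequences by rank of molecules within the mouse (mean ± SD over 17 mice, 15 for ranks over 1000). TRBV13-3 falls from 24.3% at ranks 21 to 50 to 9.67% over rank 1000, and length rises from 13.5 to 13.9 residues.

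No difference between genotypes in these V genes passed the test. TRBV13-3 was at 28% ± 12.1 of leading clones for β5t-KO (SD over 4 mice), 24% ± 10.8 for β5i-KO (5 mice), 23% ± 4.16 for BIT (4 mice) and 21.5% ± 5.26 for WT (4 mice). Over the 12 V genes and 6 pairs of genotypes, 0 of 72 differences of leading minus other clones passed the exact permutation test with adjustment, and 7 had an unadjusted p under 0.05. When V genes were pooled into TRBV1 to TRBV5, TRBV12 and TRBV13, TRBV14 to TRBV30 and TRBV31, and J genes into TRBJ1 and TRBJ2, 0 of 36 differences between genotypes passed, and the smallest unadjusted exact p was 0.171.

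J genes showed no difference that passed the test. Of 12 J genes, 0 (0.0%) passed by the exact sign-flip permutation, and 1 had an unadjusted p under 0.05. That gene was TRBJ2-5, at 8.35% ± 3.95 of leading and 11.4% ± 0.99 of other clones (SD, n = 17, lower in 13 of 17 mice, exact permutation p = 0.00978, adjusted p = 0.117). TRBJ2-7 was the most frequent J gene, at 27.6% ± 11.2 against 22.6% ± 1.26, higher in 10 of 17 mice (adjusted exact p = 0.29). The commonest V and J pair was TRBV13-3 with TRBJ2-7, in 52 leading clones of 15 mice, 6.12% of the leading clones against 2.17% of the others. TRBJ2-5 passed with 20 leading clones (-4.64 percentage points, adjusted exact permutation p = 0.0447). It also passed when ranked by reads, with TRBJ1-6, and when ranked by molecules over the mean of the V gene, with TRBJ1-2.

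CDR3 was shorter in leading clones. Their mean CDR3β length was 13.5 ± 0.40 residues against 13.9 ± 0.032 in the other clones (SD, n = 17), a difference of -0.39 residues, in that direction in 14 of 17 mice (exact sign-flip permutation p = 0.000443, adjusted p = 0.00221 over 5 properties). CDR3β of at most 12 residues made up 26.8% ± 10.9 of leading and 17.3% ± 0.83 of other clones (higher in 14 of 17 mice, exact p = 0.000793). Those of at least 16 residues made up 7.41% ± 5.37 against 12.4% ± 0.63 (lower in 14 of 17 mice, exact p = 0.00232). The mean length of leading clones was 12.76 in β5i-KO 1 and 12.78 in BIT 4, the lowest, and 13.96 in β5t-KO 4, the highest.

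The joint was shorter as well. Between the V and the J part, leading clones had 8.29 ± 1.09 bases against 9.25 ± 0.15 in the other clones (SD, n = 17), a difference of -0.96 bases, in that direction in 14 of 17 mice (exact permutation p = 0.00328, adjusted p = 0.0041). Without the bases assigned to D, the difference was -0.37 bases. Of the 850 leading clones, 50 had no base between V and J, such as the TRBV17 clone of β5t-KO 3 shown above with no capital letter. Such clones were not counted among the other clones, so that number is a description only.

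**Figure D4:**
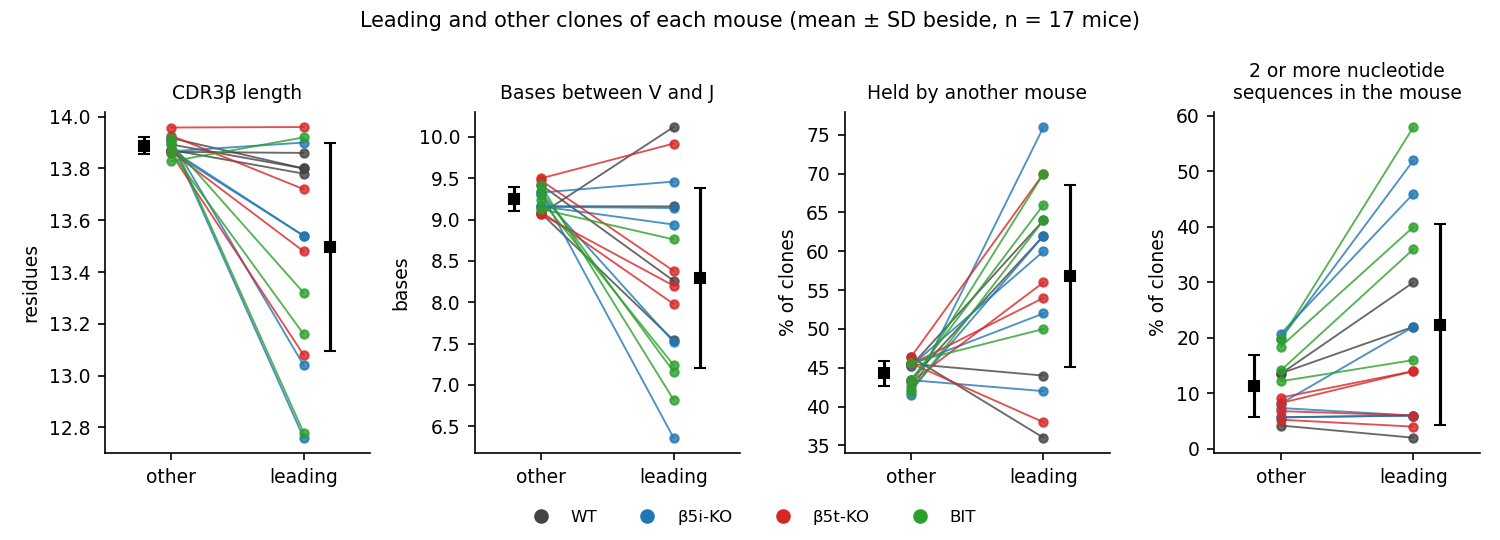
Mean CDR3β length, bases between V and J, and shares of clones held by another mouse or made by 2 or more nucleotide sequences in the same mouse, for the other and the leading clones of each mouse (lines join 1 mouse; squares, mean ± SD, n = 17). Length falls in 14 of 17 mice and the share held by another mouse rises in 13 of 17.

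Leading clones were more often found in other mice. The CDR3β amino acid sequence of 56.8% ± 11.8 of leading clones was also held by at least 1 of the 16 other mice, against 44.3% ± 1.62 of the other clones (SD, n = 17). The share of leading clones was 36%, 64%, 44% and 62% in WT 1 to 4, and 76%, 42%, 62%, 60% and 52% in β5i-KO 1 to 5. It was 70%, 56%, 54% and 38% in β5t-KO 1 to 4, and 70%, 50%, 64% and 66% in BIT 1, 2, 4 and 5. It exceeded that of the other clones in 13 of 17 mice, by 12.6 percentage points on average (exact permutation p = 0.00145, adjusted p = 0.00242). The exceptions were WT 1, WT 3, β5i-KO 2 and β5t-KO 4.

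Sharing did not need the same nucleotides. Of the 850 leading clones, 243 (28.6%) had their nucleotide sequence in another mouse, 240 (28.2%) had only their amino acid sequence there, and 367 (43.2%) had neither. With the V and J gene required to match as well, 180 were held elsewhere, and 10 of those reached 1 molecule at most in any other mouse. The median of the largest count elsewhere was 7 molecules. By nucleotide sequence, leading clones were held by another mouse more often than the other clones by 15.7 percentage points (adjusted exact permutation p = 0.000534). By amino acid sequence the excess was 12.6 points. Leading clones thus showed no excess in sharing of the amino acid sequence alone. Of the 17 first-ranked clones, 6 had their amino acid sequence and 3 their nucleotide sequence in another mouse. Of the other clones 44.3% ± 1.62 had their amino acid sequence in another mouse, so 6 of 17 is no excess. For ranks 1 to 10 the share was 58.8% ± 15.4 (SD, n = 17). The first-ranked clones were not tested.

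Leading clones that more mice held were shorter. The 367 held by no other mouse averaged 14 ± 1.57 residues with 10.1 ± 4.18 bases between V and J (SD over clones). The 83 held by 10 or more other mice averaged 12.4 ± 1.52 residues with 5.94 ± 4.37 bases. TRBJ2-7 was used by 17.7% of the former and 61.4% of the latter. Clones are not replicates of a mouse, so these values are a description.

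Leading clones also more often had a second nucleotide sequence for their residues within the same mouse. A second nucleotide sequence for the same residues was present for 22.4% ± 18.1 of leading and 11.3% ± 5.66 of other clones (SD, n = 17), higher in 13 of 17 mice (exact permutation p = 0.00122, adjusted p = 0.00242). Only 10 leading clones lay 1 base away from a larger clone of their mouse, and the larger clone had at most 2.08 times their molecules. Few such cases could be found, as leading clones are the largest of their mouse. Smaller clones 1 base away, which can supply the second sequence of a leading clone, were not counted separately. Counting only second sequences with 2 or more mismatches, the difference was 7.04 percentage points and passed the test.

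Hydrophobic residues at both positions 6 and 7 of CDR3β, counted from the conserved cysteine as 1, are known to favour self-reactivity. They were present in 3.88% ± 2.29 of leading and 3.17% ± 0.22 of other clones (SD, n = 17), higher in 10 of 17 mice, and the difference did not pass the test (exact permutation p = 0.216). BIT mice had 5.50% ± 1.00 and WT mice 2.50% ± 1.91 of leading clones with this feature (SD, n = 4 each, adjusted exact p = 0.257).

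The size of these differences moved with the number of clones in the library. Across the 17 mice, log10 of the clone number and the difference in length had r = -0.52 (permutation p = 0.0224) and rho = -0.54 (permutation p = 0.0259). For bases between V and J, r was -0.69 (permutation p = 0.00174) and rho -0.82 (permutation p = 0.00016). For the share held by another mouse, r was 0.60 (permutation p = 0.0119) and rho 0.65 (permutation p = 0.00562). For the share with a second nucleotide sequence, r was 0.82 (permutation p = 2e-05) and rho 0.94 (permutation p = 4e-05). The 4 relations, together with that of TCRα and TCRβ shares, had adjusted permutation p of at most 0.0259. Without WT 1 and β5t-KO 2, the mice farthest from the median clone number, r was -0.57, -0.85, 0.67 and 0.89 in the same order.

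With all libraries thinned to 7669 molecules before ranking, all 4 differences kept their direction and passed the test. The difference was then -0.22 residues, -0.54 bases, 6.13 percentage points held by another mouse and 1.76 points with a second nucleotide sequence, with adjusted exact permutation p of 0.0262 or less.

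Between genotypes, these properties of leading clones did not pass the test. Mean CDR3β length was 13.8 ± 0.035 residues for WT (SD over 4 mice), 13.6 ± 0.38 for β5t-KO (4 mice), 13.4 ± 0.45 for β5i-KO (5 mice) and 13.3 ± 0.47 for BIT (4 mice). The smallest adjusted exact p of the 6 pairs was 0.429. The share held by another mouse was 51.5% ± 13.7 for WT, 54.5% ± 13.1 for β5t-KO, 58.4% ± 12.6 for β5i-KO and 62.5% ± 8.70 for BIT, with an adjusted exact p of 0.8 for each pair. A second nucleotide sequence was present for 37.5% ± 17.2 of leading clones in BIT and 9.50% ± 5.26 in β5t-KO mice (SD, n = 4 each), groups that did not overlap (exact p = 0.0286, adjusted p = 0.171).

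The sequences that led in several mice were few. The 850 leading clones held 811 distinct CDR3β amino acid sequences, of which 25 led in 2 or more mice, 17 of them in 2 and 8 in 3. Of these 25, 17 came from mice of more than 1 genotype and 8 from mice of 1 genotype, a split not set against what mice taken without regard to genotype would give. TRBJ2-7 was the J gene of 16 and a TRBJ2 gene that of 24. A TRBV13 gene was used in at least 1 mouse by 18, and 14 used more than 1 V gene. Of the leading clones of a mouse, 27.6% used TRBJ2-7, 74.9% a TRBJ2 gene and 46% a TRBV13 gene on average. A recurring sequence has several clones that could use a TRBV13 gene, so that count is not on the same footing. These counts were not tested. Each of the 25 was held by 3 to 15 of the 17 mice, with a median of 11.

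The sequence with the largest summed share among those leading in 3 mice was the TRBV13-3 and TRBJ2-2 CDR3β of 15 residues shown above. It ranked first in WT 2 at 0.14% of molecules and was at rank 3 in WT 3 and in WT 4, and 1 further mouse held it at a lower rank. WT 3 and WT 4 had the same nucleotides, and WT 2 had another nucleotide form of the same residues. The TRBV13-1 and TRBJ2-7 sequence of 11 residues led in BIT 1, BIT 2 and BIT 4 at rank 50, 5 and 3, where BIT 4 held it a second time at rank 7, and 9 mice held it in all. The TRBV13-3 and TRBJ2-7 sequence of 11 residues led in β5i-KO 1, β5i-KO 3 and β5t-KO 3 with the same nucleotides in each, and 14 mice held it in 10 nucleotide forms.

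It was also asked whether leading clones are found more often in mice of the same genotype. For this, each searched mouse was thinned to the same number of molecules. Within BIT and WT mice, 13.9% of leading clones of a mouse were found in another mouse of its genotype and 10.7% in a mouse of the other genotype, a difference of 3.19 percentage points (exact permutation p = 0.0286, the smallest possible, adjusted p = 0.0857). For BIT and β5t-KO mice the values were 12.8% and 9.73%, a difference of 3.05 points (exact p = 0.0286, adjusted p = 0.0857). The other 4 pairs had differences of -0.72 to 1.35 points with adjusted exact p of 0.381 to 0.571. Without BIT 4, the difference for BIT and β5t-KO mice was -0.43 points. For BIT and WT mice it was 0.51 to 1.46 points without any 1 BIT mouse (lowest without BIT 1, adjusted exact p = 0.891).

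**Figure D5:**
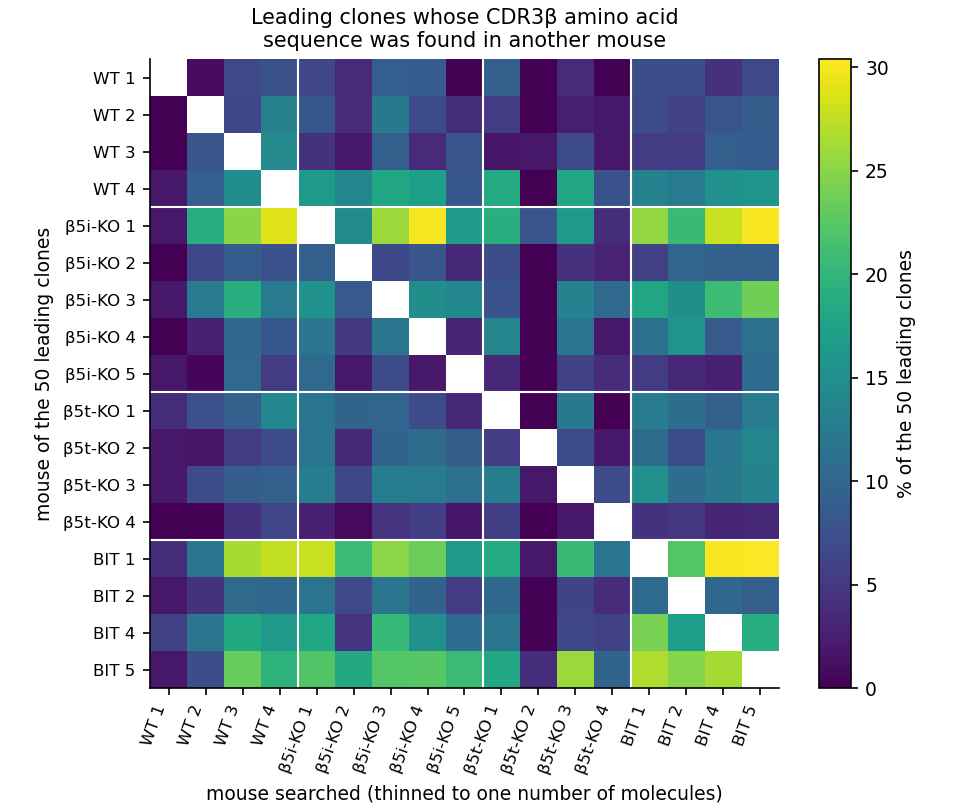
Percentage of the 50 leading clones of each mouse (rows) whose CDR3β amino acid sequence was found in each other mouse (columns), with the searched mouse thinned to 7669 molecules. Rows of BIT 1 and β5i-KO 1 are high across mice of all genotypes, and the column of β5t-KO 2, the library with 393 clones, is low.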

How the data were processed

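RNA of sorted CD8 T cells was made into libraries by the authors with a kit that amplifies TCRα and TCRβ transcripts and tags molecules (SMARTer Mouse TCR a/b). Reads were assembled into clones with MiXCR, whose version and settings are not given in the sources used here, and the submitters' processing notes name mm10. The deposited tables give, for each clone of each mouse, a whole-number count of reads and of unique molecules, neither normalised nor pooled over mice. Molecule counts carry sampling error, and their number limits the precision.

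In-frame clones were those without a frame shift or stop codon. They were ranked by molecules, and the 50 leading clones of a mouse were compared with all its other in-frame clones, each clone counted once. Differences were tested over mice with exact permutation tests, two-sided (sign flips of 17 mice, or group labels for 6 pairs of genotypes), with Benjamini-Hochberg adjustment and a threshold of 0.05. Correlations used 100000 resamples. Thinning was to 7669 molecules, the shallowest of the 17 libraries, over 20 draws for ranking. V and J genes were named if they passed, at most 8 V and 4 J genes by the smallest p, with every other V gene that passed given in brief, and J and V genes that missed the threshold were added after seeing their values. Clones named are first-ranked clones and those leading in the most mice, up to 10.

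The members and lists were chosen with earlier results of these data known. The tests were tested on simulated data. Alternatives were 20 or 100 leading clones, the leading 1%, ranking by reads, thinning, merging clones of one nucleotide sequence, other sets of other clones, nucleotide sequences, BIT 3 included, each mouse omitted in turn, and a block for the replicate number. Ranking by molecules over the mean of the V gene, the share over an even share, D bases left out and 3 libraries left out were added after seeing the data. Genes were placed on GRCm39 with GENCODE vM39, in which all 34 V and J genes of the comparisons matched by symbol. Software was SciPy 1.17.1, pandas 2.3.3 and NumPy 2.4.6 under Python 3.11.15, with Matplotlib 3.10.9 for figures.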

Additional observations from a re-analysis of the deposited data

Results flagged for a closer look

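Of 59 sets of 1 group's mice, 5 held a mouse far from the others of its group by Dixon's criterion, which chance gives in about 1 of 20. WT 1 was high in the share of molecules held by the 50 leading TCRβ clones, 20.7% against 1.51% to 4.59% in the other WT mice. It was high in that of TCRα too, 10.9% against 4.23% to 5.32%. β5t-KO 4 had 4% of leading clones with hydrophobic residues at both positions 6 and 7 against 2% in each other β5t-KO mouse, and BIT 1 had 4% against 6% in each other BIT mouse, a step of 1 clone in 50. In β5t-KO 3, 20% of leading clones used TRBV14 to TRBV30, against 28% in each other β5t-KO mouse.

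TRBV12-1 differed between genotypes in how far leading clones exceeded the others. The excess was 2.83 percentage points smaller in β5i-KO than in WT mice (β5i-KO minus WT, -2.83) and 3.15 points larger in BIT than in β5i-KO mice. Each had an exact permutation p of 0.00794, which was 0.0238 adjusted over the 6 pairs for that gene. Over all 72 differences of called V genes the smallest adjusted exact p was 0.286, so neither passed there.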

How the results depend on the processing

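Over 823 results recomputed under an alternative, 754 kept their direction and side of the threshold. CDR3 length, bases between V and J, the share held by another mouse and the share with a second nucleotide sequence did so under all alternatives run, at -0.66 to -0.22 residues, -1.68 to -0.37 bases, 6.13 to 21.2 points and 1.76 to 16.2 points. For the other results the cause of a change was not tested.

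V genes that passed were 7 with 20 leading clones, 6 ranked by reads, 2 against ranks 51 to 1000 and 1 ranked by molecules over the V gene's mean. J genes that passed were 1 with 20 leading clones, 2 ranked by reads and 2 over the V gene's mean. Over the V gene's mean, a ranking that levels V genes by its construction, TRBV19 was at 1.30, TRBV16 at 1.68 and TRBV20 at 0.36 points. TRBV12-1 was at -1.07 and TRBV13-1 at -0.96 points, so that all 5 were reversed. Hydrophobic residues reversed to -0.079 points with 100 leading clones, -0.82 by reads and -0.37 over the V gene's mean.

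The share of β5t-KO minus β5i-KO mice lost its call with 100 leading clones (17.9 points), the leading 1% (1.21), 3 libraries left out (4.19), the replicate block (11.8) and, reversed, over an even share (-1.19-fold). Over an even share the other pairs reversed too, to 1.10 (β5i-KO minus WT), -0.086 (β5t-KO minus WT), 1.86 (BIT minus WT), 0.76 (BIT minus β5i-KO) and 1.95 (BIT minus β5t-KO). BIT minus β5i-KO reversed to 0.20 points with the leading 1% and 6.001 with BIT 3, and BIT minus WT to 1.08 with BIT 3.

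With each mouse left out in turn, the share of β5t-KO minus β5i-KO mice was 4.31 (without β5t-KO 2) to 14.5 points, and the adjusted exact permutation p was 0.0857 without any 1 mouse of these 2 groups. With fewer mice the smallest p that the exact test can give is higher, so that loss cannot decide the call. β5t-KO minus WT was -0.61 (without β5t-KO 2) to 10.97 points, and 0 to 1 J genes passed (1 without WT 2). Leading clones found within minus between genotypes were 0.51 (without BIT 1) to 6.32 points for BIT and WT (adjusted exact p of 0.0857 to 0.891), -0.32 to 2.32 for β5i-KO and WT, -0.40 to 1.60 for β5t-KO and WT, -0.46 to 2.85 for β5t-KO and β5i-KO, -2.72 to 0.88 for BIT and β5i-KO and -0.43 to 6.401 for BIT and β5t-KO. By reads they were 4.25 points for β5t-KO and β5i-KO, then called (adjusted exact p = 0.0476), and 0.60 for BIT and β5i-KO. For BIT and β5i-KO they were 0.26 points by nucleotide sequence and 0.10 with 3 libraries left out, and for β5i-KO and WT -0.16 over the V gene's mean. A left-out mouse also lowers the weight of its genotype's pairs in the pooled value within genotypes, which moves these differences.

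V gene use of the other clones, leading clones left out, was taken as each mouse's departure from the mean of its genotype. On that measure 22 same-numbered pairs of mice of different genotypes correlated at 0.038 to 0.94 (mean 0.51). The 86 pairs of other numbers correlated at -0.87 to 0.93 (mean -0.12). Among mice of other genotypes, 7 of 17 mice correlated best with a mouse of their own number. The mean was 0.66 for number 1, 0.15 for number 2, 0.56 for number 3 and 0.73 for number 4, and 0.38 for the 1 pair of number 5. Not every pair passed 0.1, so the main tests did not pair mice by number and take no account of this likeness. The labels do not say what the number stands for, and shared handling was not tested. With the number as a block, 4 pairs of mice cannot reach the threshold. Calls for TCRβ, TCRα and first-ranked clone shares were lost (the block on the last 2 was chosen after seeing the data), and CDR3 length, sharing, V locus groups and J clusters between genotypes had no call with or without it. The count of the last leading clone was shared by 65 clones in β5i-KO 4, 35 in β5i-KO 1, 11 in WT 1 and 2 in β5t-KO 2.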
